A study of Mus musculus with 12 samples.

Results

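Gasdermins are proteins that, once a protease removes their inhibitory end, insert into membranes and form pores. The pores of gasdermin D release interleukin-1 family cytokines and can end in pyroptosis, a lytic form of cell death that begins when inflammasome sensors activate caspases. Gasdermins of the A and C groups are known mainly from surface epithelia such as skin and gut, and the mouse carries several tandem copies of both. The 3 gasdermin genes described here are Gsdmc2, Gsdma and Gsdmd, out of 18194 genes measured. Each was read from probe sets (short probes for the same transcript) annotated to that symbol alone, and where a gene had more than 1 the brightest over the 12 arrays was used. Gsdma had 2 such probe sets and the others 1 each, 4 in all. The choice of these genes used their signals in the same 12 arrays, so their levels and differences are given as a description, with no test.

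The arrays measured total RNA of ventral or lateral prostate from mice aged 16 weeks, either wild type (titles WT) or Med1 knock out (titles MT), with 3 arrays in each of 4 groups. Med1 is a subunit of Mediator, the complex through which nuclear receptors and other transcription factors act on RNA polymerase II. Groups are named by genotype and lobe, WT_VP, MT_VP, WT_LP and MT_LP. The labels used here name neither the strain, the promoter of any Cre nor the deleted part of Med1, and leave it unsaid if each array stands for its own animal. On its brightest probe set, Med1 itself averaged 9.43 in WT_VP and 8.86 in MT_VP (-0.57 ± 0.12 log2 units, SE, limma adjusted p = 0.0119). In the lateral lobe it averaged 8.52 in WT_LP and 8.39 in MT_LP (limma adjusted p = 0.622), so that group is called labelled knockout. Other Med1 probe sets are not given here, so this does not settle whether Med1 was lost in the lateral lobe. All 9 measured prostate epithelium markers, among them Krt8, Hoxb13 and Pbsn, read above the low-signal mark in every group. That mark, chosen after the values were seen, lies at the mean lower quartile of a lobe's arrays, which was 4.73 (log2) for ventral and 4.52 for lateral samples. In whole tissue, fewer cells of a type and less RNA per cell cannot be told apart.

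Gsdmc2 was higher in the ventral knockout than in wild type and lower in the lateral arrays labelled knockout. It is 1 of the tandem gasdermin C genes on chromosome 15. In WT_VP its signal was 4.39, 5.18 and 4.55 log2 units in replicates 1, 2 and 3. In MT_VP it was 7.66, 7.24 and 7.39. All ventral knockout arrays lay above all ventral wild-type arrays, whose mean of 4.71 ± 0.42 (SD, n = 3) was at the low-signal mark.

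The ventral difference was 2.73 ± 0.32 log2 units (SE), a ratio of 6.61, or at least 5.78-fold when wild-type arrays below their own lower quartile were set to that quartile. In WT_LP the signal was 6.30, 6.64 and 6.15, and in MT_LP it was 2.58, 4.13 and 3.90. Here the order was turned, with every array labelled knockout below every wild-type array and all 3 below their lower quartile. The lateral difference was -2.83 ± 0.32 (SE), which is at least 3.54-fold lower by the same floor. The lowest array, MT_LP replicate 1, spread that group to an SD of 0.84, and without it the difference was -2.35. Over all genes, arrays of the genotypes did not overlap for 29.5% of genes among ventral and 26.9% among lateral samples.

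**Figure D1:**
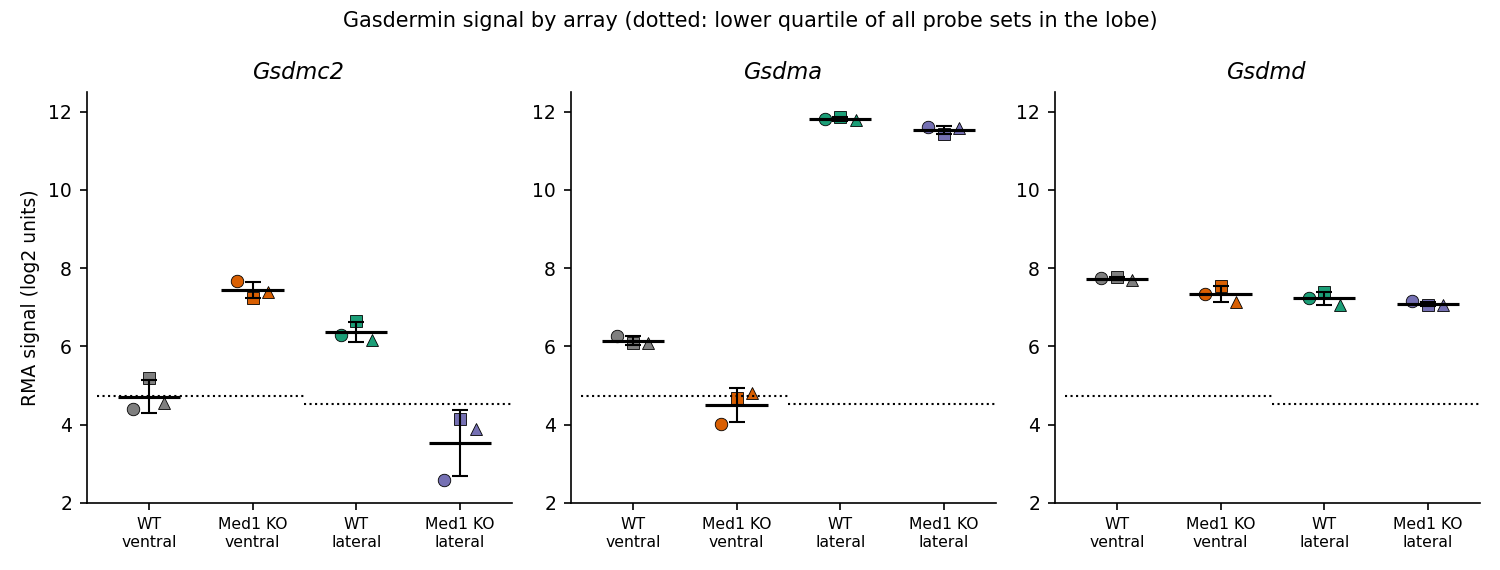
RMA signal in log2 units for Gsdmc2, Gsdma and Gsdmd on each of the 12 arrays, by genotype and lobe. Circles, squares and triangles are replicates 1, 2 and 3, bars are the mean and SD of 3 arrays, and dotted lines are the lower quartile of all probe sets in each lobe (4.73 ventral, 4.52 lateral). Gsdmc2 is high in the ventral knockout (mean 7.43) and lateral wild type (6.36), Gsdma is high in both lateral groups, and Gsdmd lies between 7.04 and 7.76 on every array.

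From highest to lowest, Gsdmc2 averaged 7.43 in MT_VP, 6.36 in WT_LP, 4.71 in WT_VP and 3.54 in MT_LP, and no pair of neighbouring groups overlapped. In wild type it was higher in the lateral lobe by 1.66 log2 units, and in the arrays labelled knockout the lateral minus ventral difference was -3.90. Wild-type arrays of the lobes did not overlap in 73.3% of all genes, and knockout arrays in 69.0%. Sorted values matched within each lobe but not between the lobes, as separate normalization runs would leave them, and over all genes the wild-type lateral signal had a median of -0.34 relative to ventral, so lobe differences carry that offset. With each array centred on its median, the wild-type lobe difference of Gsdmc2 was 2.01.

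The other probe sets for gasdermin C genes are annotated to Gsdmc2 together with a paralog, so their signal cannot be assigned to either gene. The probe set shared with Gsdmc4 read 3.46, 4.30 and 3.88 in WT_VP against 5.92, 5.76 and 5.76 in MT_VP, a difference of 1.93. In the lateral lobe it read 4.82, 5.40 and 5.21 in WT_LP against 2.71, 3.19 and 3.69 in MT_LP, a difference of -1.95. The groups did not overlap in either lobe, and the directions were those of the Gsdmc2 probe set.

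The probe set shared with Gsdmc averaged 8.78 in WT_VP, 9.86 in MT_VP, 8.76 in WT_LP and 7.68 in MT_LP. Its differences were 1.08 (ventral) and -1.09 (lateral), and the genotypes again did not overlap. Its wild-type lobes differed by only -0.012, unlike those of the Gsdmc2 probe set. These probe sets share sequence targets and arrays and are no independent support for each other, and paralogs this close may also bind the probes annotated to Gsdmc2 alone.

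**Figure D2:**
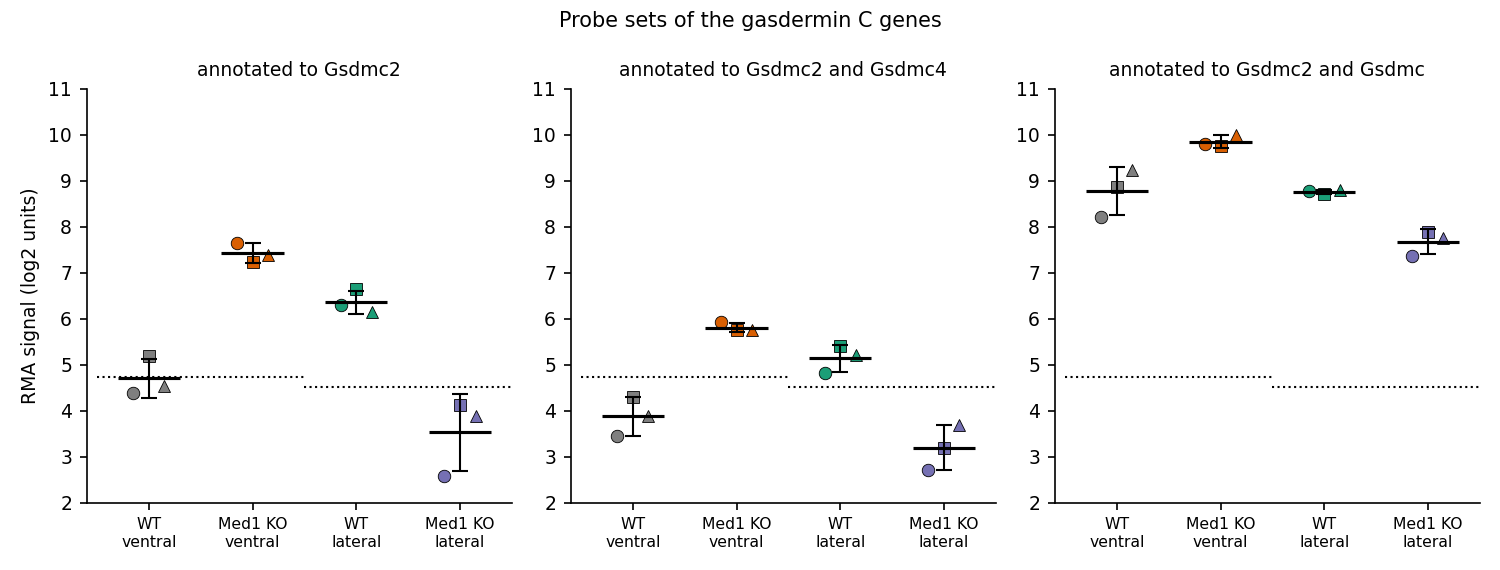
RMA signal in log2 units on each array for the probe set annotated to Gsdmc2 alone and for those annotated to Gsdmc2 with Gsdmc4 or with Gsdmc. Symbols, bars and dotted lines mark replicates, mean with SD of 3 arrays, and the lower quartile of each lobe. In all 3, the ventral knockout lies above the ventral wild type and the lateral group labelled knockout lies below the lateral wild type.

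Most stromal and all basal epithelium markers lay in the same directions as Gsdmc2. In the lateral comparison most urothelium markers lay the other way. In the ventral comparison 7 of 8 stromal and 5 of 5 basal markers had differences above 0, the exception being Dcn (-0.095), and in the lateral comparison 0 of either list did. Of 8 stromal markers 6 passed as higher in the ventral knockout (limma adjusted p under 0.05, a call that 9.08% of all genes received in this comparison). Their summed signal, on the linear scale, was 15220 to 17566 in WT_VP and 19696 to 22021 in MT_VP. In the lateral lobe 3 of 8 passed as lower, against 5.03% of all genes called, with sums of 23133 to 24337 in WT_LP and 17429 to 20900 in MT_LP. The 5 basal epithelium markers summed to 1159 to 1317 in WT_VP and 1472 to 1534 in MT_VP, with 0 passing by limma, and to 2642 to 2944 in WT_LP and 2070 to 2200 in MT_LP, with 1 passing, Krt5 at -0.47 (limma adjusted p = 0.00679).

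Seminal vesicle markers were also lower in the lateral comparison, with 0 of 6 differences above 0. Of the 6, 4 passed as lower by limma, against 3.42% of all genes. The 6 markers summed to 38925 to 41098 in WT_LP and 1703 to 9236 in MT_LP, where replicate 3 was lowest, and to 383 to 788 in WT_VP, where replicate 3 was highest. Of 5 urothelium markers 4 had differences above 0 in the lateral comparison, where Gsdmc2 was lower. There 2 passed as higher by limma, Upk1a at 0.68 and Upk3b at 0.73. In the ventral comparison 2 of 5 were above 0 and 0 passed, with a median of -0.0072 beside -0.020 over all genes. The part of the stromal, basal, urothelium and seminal vesicle markers in the Gsdmc2 values was not tested. Without WT_VP replicate 3 and MT_LP replicate 3, the Gsdmc2 differences were 2.65 and -3.01, in the same directions. Of 7 intestinal-type epithelium markers, a tissue where gasdermin C genes are known to be active, 3 had low signal in every group (Cdx1, Fabp2 and Vil1) and 0 passed by limma in either lobe.

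Opposite changes in the lobes, of the kind Gsdmc2 showed, were the commonest pattern among genes called in both comparisons. Among 261 genes called in both lobes, out of 18194, 141 were higher in the ventral and lower in the lateral comparison. Of the rest 9 were the reverse, 72 higher in both and 39 lower in both. Over all genes called, 1069 were higher and 583 lower in the ventral comparison, and 294 higher and 622 lower in the lateral one. Higher was thus the commoner ventral call, and lower the commoner lateral call, over all genes. Gsdmc2 is among the 141 but was chosen with its values known, so its place there is no test. With no call needed, 5 genes were at least 1 log2 unit higher in the ventral and at least 1 lower in the lateral comparison. They were Gsdmc2, Ptgds, Ces1d, Bex4 and Clca1. Apart from Gsdmc2, the largest difference between lobes among characterized genes of the 141 was that of Ptgds, a prostaglandin D synthase (1.01 ventral and -2.61 lateral). Next were the carboxylesterase Ces1d (1.40 and -1.75), Bex4 (1.54 and -1.40) and Alox5ap, the activating protein of leukotriene synthesis (0.69 and -2.16). Glis3, Clca1, Tcim, Hoxd8, Mecom and Gprin3 followed.

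**Figure D3:**
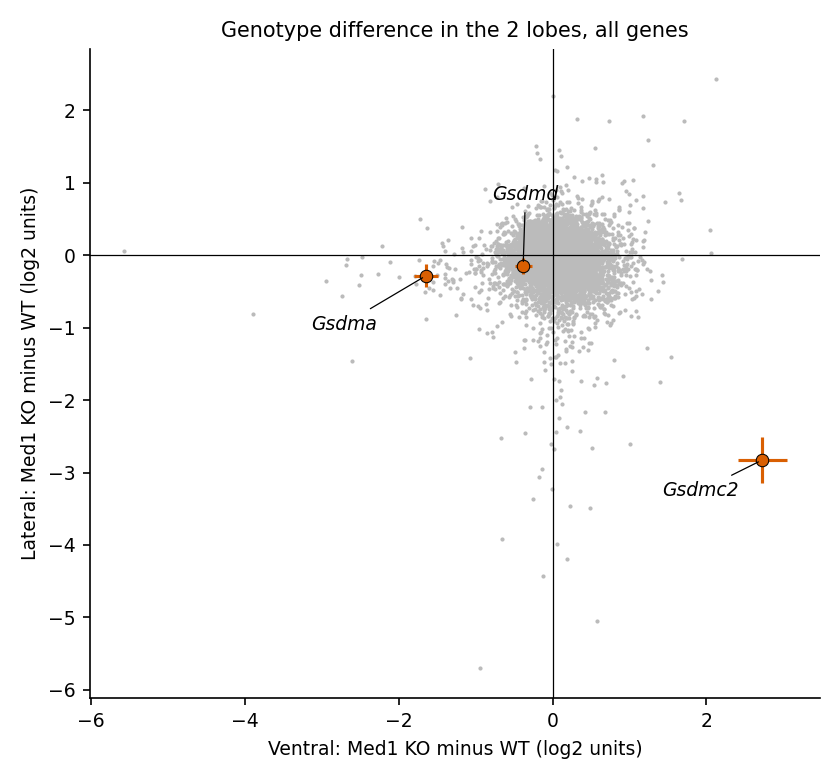
Genotype difference, Med1 KO minus WT in log2 units, in the ventral lobe (x axis) and the lateral lobe (y axis) for all 18194 genes in grey. Orange points are the gasdermins, with moderated standard errors. Gsdmc2 stands at 2.73 and -2.83, Gsdma at -1.64 and -0.28, and Gsdmd at -0.38 and -0.14.

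The genes whose pattern over the 12 arrays was most like that of Gsdmc2, among those whose group means spanned at least 1 log2 unit, were Clca1 (Pearson r = 0.956), the glutathione transferase Gstm7 (0.915), the leptin receptor Lepr (0.891), the potassium channel Kcnq1 (0.890) and the Ets factor Etv5 (0.877). Clca1, a secreted regulator of mucus and chloride transport, averaged 3.99 in WT_VP, 5.22 in MT_VP, 4.44 in WT_LP and 3.16 in MT_LP, all low signals but that of MT_VP. Of 4288 eligible genes, 2 exceeded an r of 0.9. The arrays share groups and normalization, so these values describe likeness only.

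Gsdma was a lateral lobe gene in these samples. It is a gasdermin A gene on chromosome 11, next to its paralogs, and is known from skin and upper gut epithelium. In WT_LP it read 11.81, 11.86 and 11.78 log2 units, and in WT_VP 6.27, 6.08 and 6.08. The lateral wild-type signal was higher by 5.67, a ratio of 51.0, which is far beyond the offset between lobes over all genes, and the difference was 6.03 under either joint scaling of the arrays.

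In the ventral knockout Gsdma read 4.005, 4.68 and 4.82, all below the wild-type arrays. The difference was -1.64 ± 0.16 log2 units (SE). The mean of 4.50 ± 0.43 (SD, n = 3) was a low signal, so the ratio was at least 2.63-fold with arrays below their lower quartile set to it. In MT_LP it read 11.60, 11.42 and 11.59, also without overlap with wild type, but the difference was only -0.28 ± 0.16 (a ratio of 1.22). The difference between lobes in the knockout arrays was 7.04. The order of means was 11.82 in WT_LP, 11.53 in MT_LP, 6.14 in WT_VP and 4.50 in MT_VP, and no neighbouring groups overlapped.

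The dimmer Gsdma probe set gave the same directions with other sizes. It read 5.21, 5.21 and 5.72 in WT_VP and 4.63, 4.72 and 4.68 in MT_VP, a difference of -0.70 that ends in low signal. In the lateral lobe it read 10.59, 10.52 and 10.55 in WT_LP and 10.17, 9.86 and 10.18 in MT_LP, a difference of -0.48. With both probe sets averaged, the difference was -1.17 (ventral) and -0.38 (lateral). The genotypes overlapped on neither probe set in either lobe.

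Squamous epithelium includes cells that make gasdermin A in skin. Its 12 measured markers summed to 750 to 944 in WT_VP, 1092 to 1133 in MT_VP, 820 to 862 in WT_LP and 543 to 617 in MT_LP. Filaggrin (Flg), Sprr1b and Dsg1a had low signal in every group. In the ventral knockout 2 passed as higher by limma, Krt4 (1.07) and Krt1 (0.53), and 1 as lower, Krt6a (-0.34). Of all genes, 5.88% passed as higher and 3.20% as lower there. In the lateral comparison 1 passed as lower, the cornified envelope gene Sprr1a at -1.34 (limma adjusted p = 1.72e-04), against 3.42% of all genes. Sprr1a was also the squamous marker with the largest lateral excess in wild type, 3.14. In that lobe comparison 3 of the 12 were called higher and 8 lower by limma, against 12.3% and 55.8% of all genes. The list's median there was -0.41, beside -0.34 over all genes. Seminal vesicle markers, given above, had a median difference of -2.88 in the lateral comparison. Of the 9 prostate epithelium markers 3 passed as lower by limma in the ventral knockout, where Gsdma and Gsdmd were also lower, against 3.20% of all genes. By sign 3 of the 9 were above 0 there, and 0 passed by limma in the lateral comparison. Those that passed were the secreted proteins Tgm4 (-2.48), Pbsn (-1.28) and Msmb (-0.86). The summed signal of the list was 73728 to 75082 in WT_VP and 58890 to 59570 in MT_VP. Tgm4 was also higher in the lateral than the ventral lobe of wild type, by 2.54. The part of these lists in the Gsdma values was not tested.

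Likeness to Gsdma over the 12 arrays was ranked among genes of the same span as for Gsdmc2. Highest were the liver-type secreted protein Fgl1 (Pearson r = 0.999), the RNA export factor family gene Nxf7 (0.996) and the galactosidase-like Glb1l3 (0.995). The basement membrane collagen Col4a6 (0.994) and the amino acid transporter Slc7a8 (0.994) followed. All 5 had a higher lateral than ventral signal in wild type, and 389 of 4288 eligible genes exceeded 0.9. With the mean of each lobe removed, which leaves the genotype difference in, Fgl1 stood at 0.963. Its means were 8.09 in WT_VP, 7.03 in MT_VP, 11.55 in WT_LP and 11.43 in MT_LP.

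Gsdmd, the gasdermin cut by inflammatory caspases, varied least. In WT_VP it read 7.74, 7.76 and 7.69, and in MT_VP 7.35, 7.55 and 7.14. The ventral knockout arrays all lay below the wild-type arrays, by a mean of -0.38 ± 0.11 log2 units (SE), a ratio of 1.30. In WT_LP it read 7.22, 7.39 and 7.06 and in MT_LP 7.15, 7.04 and 7.05. These groups overlapped, and their difference was -0.14 ± 0.11. Only WT_VP (7.73 ± 0.039, SD, n = 3) stood apart from the other groups, whose means were 7.35, 7.22 and 7.08 and whose neighbours in this order overlapped. The lower lateral signal in wild type, -0.51, was -0.057 after quantile normalization over all arrays and -0.15 after median centring, so the size of the lobe difference depends on the scaling.

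Among characterized genes whose group means spanned at least 1 log2 unit, Med1, the targeted gene, was most like Gsdmd over the 12 arrays. Its Pearson r was 0.969, and 0.945 with the mean of each lobe removed. That removal leaves the genotype difference in, and both genes were lower in the ventral knockout (-0.57 for Med1 and -0.38 for Gsdmd). The arrays share groups and normalization, so these values describe likeness only. Within WT_VP, MT_VP and WT_LP the arrays stood in the same order for both genes, and in MT_LP they did not. In WT_LP, for example, Med1 read 8.58, 8.74 and 8.23 where Gsdmd read 7.22, 7.39 and 7.06. Next came Spty2d1 (0.958), Casz1 (0.950), the interferon regulatory factor Irf7 (0.943) and Pprc1 (0.941). Of 4289 eligible genes, 26 exceeded 0.9. Gsdmd itself spanned only 0.65 between its highest and lowest group means, so genes with as small a span were not ranked. Leukocyte markers, a cell class in which Gsdmd is active, summed to 1509 to 1861 in WT_VP, 1781 to 2000 in MT_VP, 851 to 895 in WT_LP and 780 to 889 in MT_LP. By limma 1 of 13 passed as higher in the ventral knockout, Csf1r at 0.61 (limma adjusted p = 0.0128), and 0 as lower. Of all genes, 9.08% were called there. In the lateral comparison 0 of the 13 passed by limma. Csf1r was also the 1 leukocyte marker of 13 with a ventral difference above 0, and the median over the list was -0.18, the direction of Gsdmd. The part of these markers and of the prostate epithelium markers in the Gsdmd values was not tested. Ncr1, Itgam and S100a8 had low signal in at least the ventral groups.

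**Figure D4:**
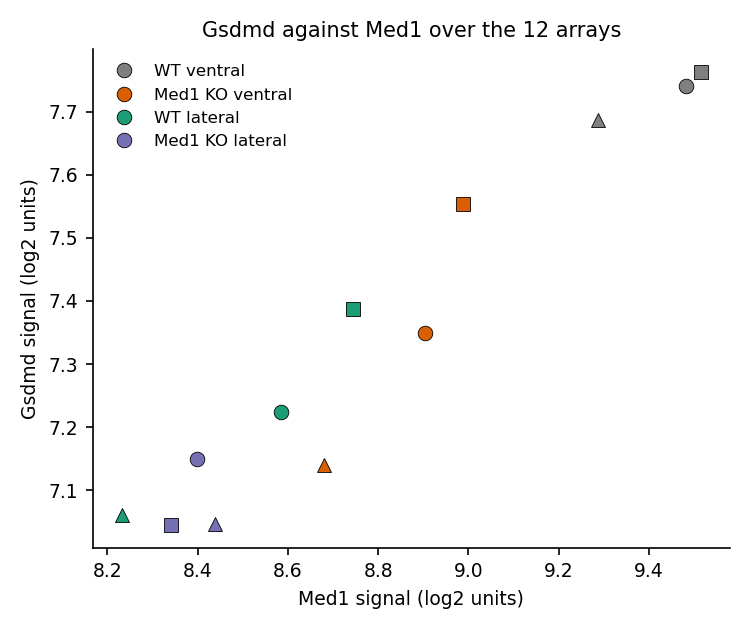
Gsdmd signal (y axis) against Med1 signal (x axis), both in log2 units, on the 12 arrays. Colours are the groups, and circles, squares and triangles are replicates 1, 2 and 3. Ventral wild-type arrays are highest for both genes. The 3 arrays of MT_LP and WT_LP replicate 3 are the lowest for Med1 and among the lowest for Gsdmd. For Gsdmd, MT_VP replicate 3 (7.14) lies below MT_LP replicate 1 (7.15).

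Genes beside the gasdermins on the chromosome passed at shares near those of all genes. Among the 18 nearest protein-coding genes with a probe set, 3 on each side of each gene in RefSeq's order, 1 was higher in the ventral knockout and 0 lower by limma, and 0 passed in the lateral comparison, while 9.08% (ventral) and 5.03% (lateral) of all genes passed. Around Gsdmc2 the ventral and lateral differences were 0.15 and 0.052 for Myc, 0.018 and -0.015 for Lratd2, and 0.23 and -0.010 for Cyrib. The nearest measured genes beside Gsdma were Gsdma2 (-0.061 and -0.068) and Psmd3 (-0.24 and 0.040), and a further neighbour, the Mediator subunit Med24, differed by -0.24 and -0.11. Near Gsdmd the gene that passed was Tigd5 (0.83 ± 0.19 in the ventral comparison, limma adjusted p = 0.0157), while Naprt, on the same side, was at -0.099.

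The other measured gasdermins were Gsdma2 and Gsdme. Gsdma2 averaged 6.68 in WT_VP, 6.62 in MT_VP, 6.43 in WT_LP and 6.36 in MT_LP, and passed in neither genotype comparison (limma adjusted p = 0.782 and 0.790). Gsdme, which caspases of apoptosis can activate, averaged 7.94, 7.88, 6.20 and 6.08 in the same order and did not pass either (limma adjusted p = 0.845 and 0.703). Its dimmer probe set was higher by 0.59 in the ventral knockout, at 7.31 against 6.72, so the probe sets disagree on that comparison. In wild type, Gsdme differed between lateral and ventral by -1.74 (limma adjusted p = 1.44e-07). The dimmer Gsdma2 probe sets differed by 0.10, -0.32, -0.32 and -0.11 in the ventral comparison. Between wild-type lobes they stood at 0.81, -0.088, 1.35 and 0.42, beside -0.26 on the brightest, so the Gsdma2 probe sets disagree on the lobes.

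The pathway around the gasdermins was followed over 52 measured genes in 6 lists, the pair above included. In the ventral knockout 5 passed as higher and 3 as lower, 15.4% of the lists, against 9.08% of all genes (5.88% higher and 3.20% lower). The median over the lists was -0.037, beside -0.020 over all genes. In the lateral comparison 0 passed as higher and 4 as lower by limma, 7.69% against 5.03% of all genes (1.62% higher and 3.42% lower), with a median of -0.067 beside -0.0025. Quantile normalization over all arrays gave 4 higher and 4 lower ventral genes, and 1 higher and 3 lower lateral genes. The difference between the lobes' genotype effects passed for 8 of the 52, 2 higher and 6 lower in the lateral lobe, against 9.31% of all genes (2.80% higher and 6.51% lower). At an added 1.5-fold threshold, 5 ventral and 2 lateral genes were left.

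Of 14 inflammasome sensors and adaptors, 3 passed as lower in the ventral knockout by limma and 0 as higher. By sign 2 of the 14 were above 0. Naip6, of the family that senses bacterial flagellin and secretion systems, read 11.96, 11.49 and 11.82 in WT_VP and 10.20, 10.04 and 10.80 in MT_VP, a fall of 1.40 ± 0.17 (SE; limma adjusted p = 2.27e-04). Naip genes are close paralogs, so this signal may include more than 1 of them. Txnip, a redox-linked partner of Nlrp3, fell by 0.56 ± 0.096 (limma adjusted p = 0.00259), from 12.21 to 11.65. Nlrp10 passed as lower at -1.20 ± 0.24 (limma adjusted p = 0.00629), but between means of 4.26 and 3.05 that are both low signal. With the ventral arrays alone the Nlrp10 call ended (limma adjusted p = 0.0502). In the lateral lobe 1 of 14 passed, Naip5 at -0.62 ± 0.15 (limma adjusted p = 0.0316), also between low signals of 3.60 and 2.99. The Naip5 call ended without WT_LP replicate 1 (-0.53), WT_LP replicate 3 (-0.61), MT_LP replicate 1 (-0.60) or MT_LP replicate 3 (-0.53). Nlrp3 (-0.035 ventral, 0.29 lateral) and the adaptor Pycard (-0.16 and -0.38) did not pass.

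Between the lobes of wild type, 1 of the 14 sensors and adaptors passed as higher and 10 as lower in the lateral lobe by limma. There Nlrp10 averaged 4.26 in ventral and 11.12 in lateral arrays, a difference of 6.86 (limma adjusted p = 2.62e-11). Naip6 went the other way, at 11.75 and 5.66 (-6.10, limma adjusted p = 4.97e-12), and Naip5 stood at 7.39 and 3.60. Nlrp10 thus had the lobe preference of Gsdma, and in both the ventral knockout arrays were the lowest. Over the 52 pathway genes, 3 passed as higher and 37 as lower in the lateral wild type, while 68.1% of all genes were called in this comparison (12.3% higher, 55.8% lower). The split was 11 higher and 24 lower after quantile normalization over all arrays and 9 higher and 28 lower after median centring.

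Proteases that can cut gasdermins include the inflammatory caspases and granzymes. In the ventral knockout 0 of 7 passed by limma in either direction. Casp1 averaged 4.41 in WT_VP and 4.52 in MT_VP, and Casp4, the caspase that responds to intracellular lipopolysaccharide, 5.32 and 5.62 (limma adjusted p = 0.729 and 0.274). Casp1 had low signal in all 4 groups. In the lateral comparison Gzma, a granzyme of cytotoxic lymphocytes, read 5.02, 5.09 and 4.54 in WT_LP and 3.76, 3.81 and 4.07 in MT_LP. Its difference was -1.005 ± 0.19 (SE; limma adjusted p = 0.00699), ending in low signal, while Gzmb stood at -0.48 (limma adjusted p = 0.116).

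Of 10 interleukin-1 family genes, 2 passed as higher in the ventral knockout by limma and 0 as lower. By sign only 3 of the 10 were above 0, and their median difference was -0.081, beside -0.020 over all genes. Il33, an alarmin of barrier cells, read 8.12, 8.19 and 7.91 in WT_VP and 8.55, 8.62 and 8.84 in MT_VP, a rise of 0.60 ± 0.11 (SE; limma adjusted p = 0.00527). The shared receptor chain Il1rap stood at 0.47 ± 0.11 (limma adjusted p = 0.0159), but its most variable probe set gave -0.056, and the call ended without WT_VP replicate 3 or MT_VP replicate 3 (both 0.40). Il1b (-0.058 ventral and 0.18 lateral) and Il18 (-0.33 and -0.18), the cytokines released through gasdermin D pores, did not pass. In the lateral comparison 0 of 10 passed by limma.

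Of 12 genes of pore action and membrane repair, 2 passed as higher in the ventral knockout by limma and 0 as lower. By sign 8 of the 12 were above 0. Zdhhc9, a palmitoyltransferase, rose by 0.73 ± 0.16 (limma adjusted p = 0.0104), and the call ended with the ventral arrays alone (limma adjusted p = 0.0637) or with its probe sets averaged (0.39, limma adjusted p = 0.0783). Ninj1, which ruptures the membrane at the end of pyroptosis, stood at 0.39 ± 0.11 (limma adjusted p = 0.0448), and leaving out any of 11 of the 12 arrays, all but MT_VP replicate 2, ended that call, with differences from 0.26 to 0.44 and limma adjusted p from 0.0522 to 0.146. In the lateral comparison Vps4b, an ATPase of the ESCRT machinery that repairs membranes, was at -0.43 ± 0.10 (limma adjusted p = 0.0285). Without WT_LP replicate 2 (-0.36), WT_LP replicate 3 (-0.40), MT_LP replicate 1 (-0.41) or MT_LP replicate 2 (-0.39) it no longer passed, nor did it after quantile normalization over all arrays (-0.34) or with its probe sets averaged (-0.19).

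Of 7 regulators of gasdermin expression and caspase-11 signalling, 1 passed as higher in the ventral knockout by limma and 0 as lower. By sign 3 of the 7 were above 0. Tlr3, a sensor of double-stranded RNA, read 9.48, 9.52 and 9.37 in WT_VP and 10.14, 10.11 and 10.06 in MT_VP, a rise of 0.65 ± 0.081 (SE; limma adjusted p = 2.41e-04). Irf2, a transcription factor known to drive Gsdmd, stood at -0.32 and did not pass (limma adjusted p = 0.0607), while Irf1 stood at -0.13. Gbp2, a guanylate-binding protein, was lower in the lateral comparison at -0.41 ± 0.092 (limma adjusted p = 0.0198). The Gbp2 call ended without WT_LP replicate 2 (-0.37), WT_LP replicate 3 (-0.40), MT_LP replicate 2 (-0.37) or MT_LP replicate 3 (-0.42). It also ended with its probe sets averaged (-0.41, limma adjusted p = 0.118) and with its most variable probe set (-0.40, limma adjusted p = 0.406).

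**Figure D5:**
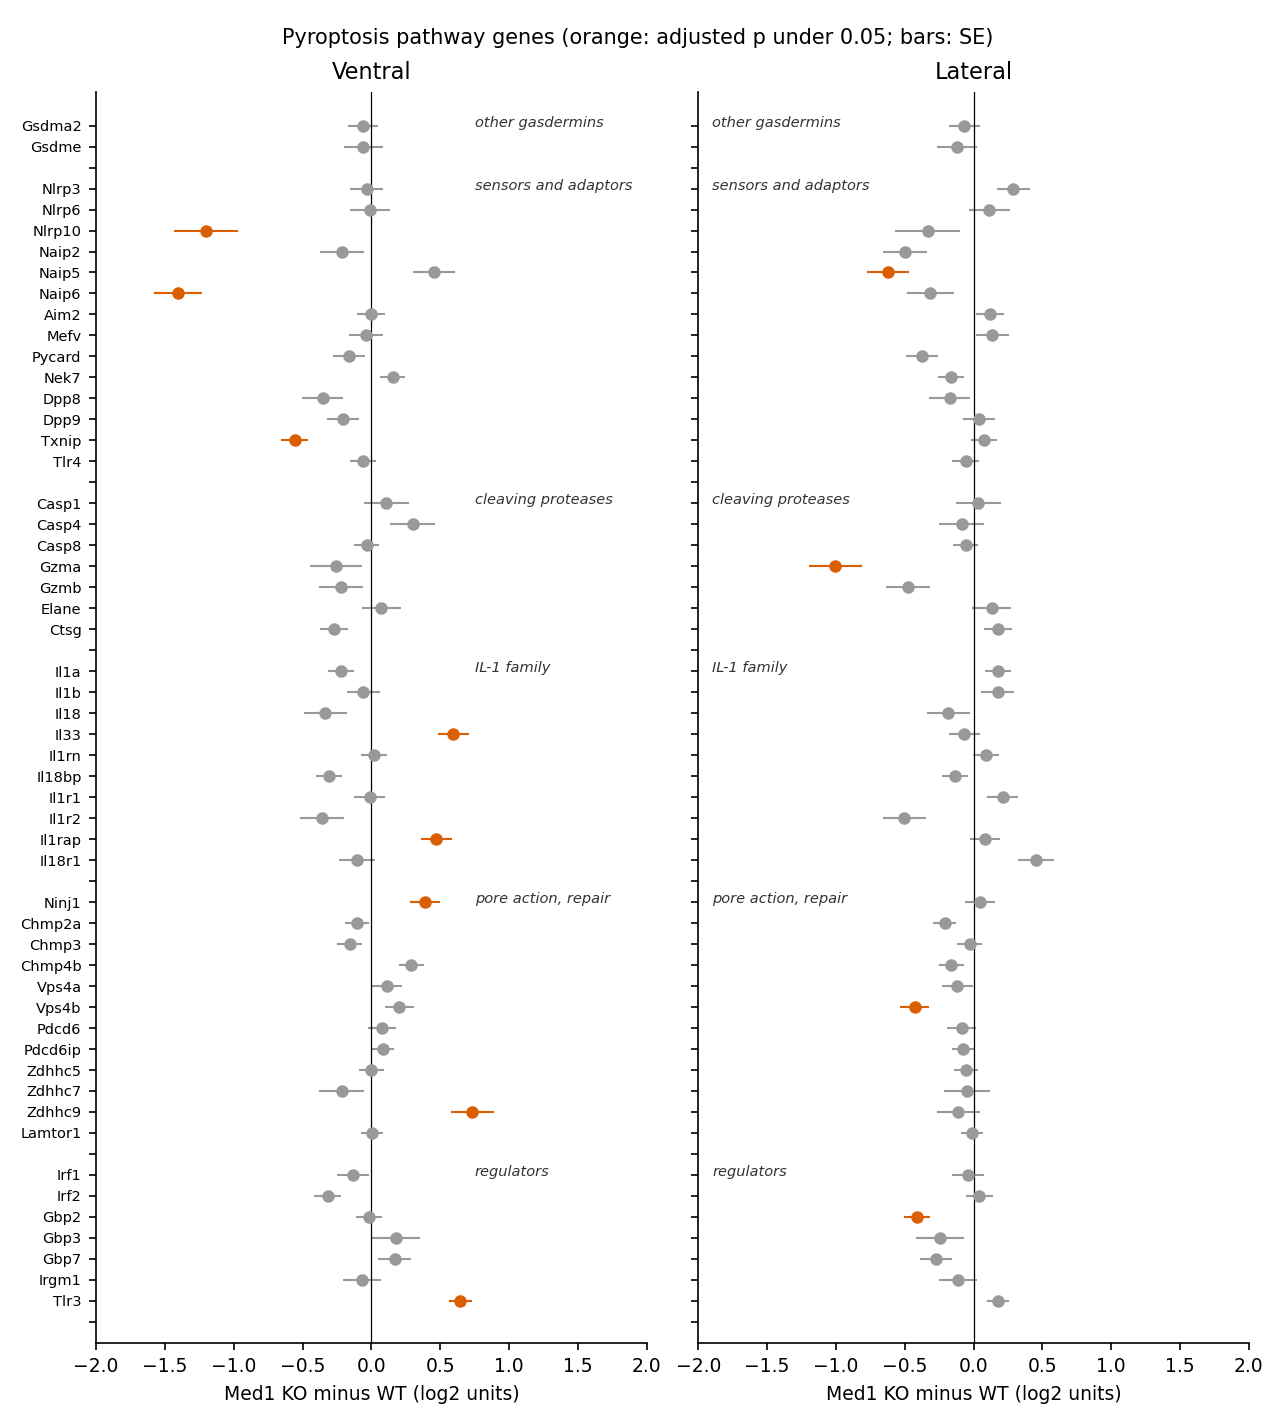
Difference Med1 KO minus WT in log2 units, with moderated standard errors, for the 52 pathway genes in the ventral (left) and lateral (right) lobe, grouped by list. Orange marks genes with a limma adjusted p under 0.05. The ventral panel has 5 orange points to the right of 0 and 3 to the left, and the lateral panel has 4 to the left.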

How the data were processed

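Signals were deposited on the log2 scale. Per the submitters' processing notes the authors used RMA in Affymetrix Expression Console, with versions not given in the sources used here. Of 45101 probe sets, 34958 carried 1 symbol in the platform annotation, 932 carried several and 9211 were unnamed, and symbols were updated by Entrez identifier through RefSeq's gene table (GRCm38.p6, used for names and gene order only; 34754 matched). The brightest probe set stood for each of 18194 genes. The fit was limma 3.58.1 in R 4.3.3 (4 group means, contrasts, eBayes) over all 12 arrays, with Benjamini-Hochberg adjustment over all genes and a threshold of 0.05, and it was tested on simulated data. Alternatives were quantile normalization over all arrays, median centring, other probe set choices, a filter on dim genes, a 1.5-fold threshold, the arrays compared alone, the replicate block and each array left out. Errors of differences are moderated standard errors.

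The members and lists were chosen with earlier results of these data known. Named genes were the members, the other measured gasdermins, up to 4 genes per list and genotype comparison by smallest p, the 3 nearest neighbours on each side, the 5 genes most alike, and up to 10 genes with opposite calls, passing over uncharacterized loci. Marker genes named beside a result, and Chmp4b, were chosen after their values were seen. Of 66 pathway genes 52 were measured and of 71 marker genes 65, and others were not analysed here. The arrays' sorted values had a median range of 0.0493 within ventral, 0.0786 within lateral and 0.388 over all arrays. Within a group arrays correlated at 0.992 to 0.996. Arrays give no depth, and their number limits the precision. The p-values reflect only how much these arrays vary within a group, which could be technical variation. Of the 3 gasdermins 0 had an entry in the promoter table used here, so no sequence is printed.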

Additional observations from a re-analysis of the deposited data

Results flagged for a closer look

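The genotype difference itself differed between the lobes for the following genes, taken as lateral minus ventral. Gsdmc2 differed by -5.55 log2 units as measured, with every ventral knockout array above and every lateral array labelled knockout below its wild-type arrays, and this difference was not tested. Its size rests on low signals in WT_VP and MT_LP, and with those arrays set to their lower quartile the ventral difference was at least 2.53 and the lateral one at least 1.82 in size. Of the 52 pathway genes 8 passed the limma test of the difference, 15.4% against 9.31% of all genes. Naip6 differed by 1.09 ± 0.24 (SE; limma adjusted p = 0.0129) and Txnip by 0.63 ± 0.14 (limma adjusted p = 0.00984), both from a ventral fall. Naip5 differed by -1.07 ± 0.22 (limma adjusted p = 0.00685), from 0.46 (ventral) and -0.62 (lateral). Il33 differed by -0.66 ± 0.16 (limma adjusted p = 0.0204) and Tlr3 by -0.47 ± 0.11 (limma adjusted p = 0.0201), both higher in the ventral knockout. Zdhhc9 differed by -0.84 ± 0.22 (limma adjusted p = 0.0303). Vps4b differed by -0.63 ± 0.15 (limma adjusted p = 0.0159), from 0.20 and -0.43. Chmp4b, an ESCRT subunit that passed in neither lobe (0.29 and -0.16), differed by -0.45 ± 0.13 (limma adjusted p = 0.0404).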

How the results depend on the processing

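No gasdermin difference changed sign under the alternatives run. With each array left out, Gsdmc2 ranged from 2.57 to 2.96 in the ventral and from -3.13 to -2.35 in the lateral lobe, Gsdma from -1.80 to -1.40 and from -0.31 to -0.23, and Gsdmd from -0.49 to -0.28 and from -0.23 to -0.062. The mean of both Gsdma probe sets gave -1.17 ventral, -0.38 lateral and 5.43 between wild-type lobes, and quantile normalization over all arrays gave -0.18 in the lateral lobe. Wild-type lobe differences were 6.03 for Gsdma under quantile normalization and under median centring, 2.01 for Gsdmc2 under median centring, and -0.057 and -0.15 for Gsdmd under the same pair. The cause was not tested. Counts of pathway genes were 5 (ventral arrays alone), 5 (1.5-fold) in the ventral and 2 (1.5-fold), 2 (dimmest 40% of genes left out) in the lateral comparison, and 5 for the difference between lobes with probe sets averaged. With each array left out they ranged from 6 to 10, 1 to 4 and 4 to 9. Over all genes they ranged from 941 to 1760, 499 to 1168 and 1103 to 1732, and were 965 with ventral arrays alone. At 1.5-fold, 634 ventral, 423 lateral and 6896 wild-type lobe calls were left. Without both WT_VP replicate 3 and MT_LP replicate 3, chosen after seeing the data, 860 ventral, 583 lateral and 973 between-lobe calls were made, with 2 lateral and 3 between-lobe pathway genes. Il1rap turned to -0.056 with its most variable probe set. Arrays of different groups that share a replicate number had correlations of deviations from -0.061 to 0.116. Such values cannot tell if they shared an animal or a batch, since technical variation may hide it. With the replicate block 1492 ventral and 848 lateral genes and 8 and 3 pathway genes passed, Naip5 being the named call lost (limma adjusted p = 0.0542). Signal near the low mark limits the sizes for Gsdmc2 and for ventral Gsdma.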

Other observations

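Pseudogenes that lie among the gasdermin C genes on chromosome 15 were also on the array, and are given here as values chosen after they were seen. Gsdmcl1 differed by -0.16 (ventral) and 0.25 (lateral), at means from 4.04 to 4.35, which are all low signal. Gsdmcl2 differed by -0.035 and 0.13 on its brighter probe set, where means ran from 5.54 to 5.89. Gsdmcl-ps differed by -0.043 and 0.31, at means from 3.44 to 4.22. The 1 probe set given to all 3 pseudogenes differed by -0.15 and 0.29. Over all pseudogene probe sets the differences ran from -0.28 to -0.035 in ventral and from -0.014 to 0.31 in lateral samples, against 2.73 and -2.83 for Gsdmc2.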
